A study of Rattus norvegicus with 12 samples.

Results

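Arc, Homer1, Plk2, Plk3, Nptx1, Nptx2 and Nrn1 are genes of synaptic signalling and neuronal plasticity, most of which neurons raise after synaptic activity, and they were followed, with the activity-induced transcript ania-5, in PC12 cells given PACAP38. The members were all probes of the array that carry 1 of these 7 gene symbols, plus the probe described as ania-5, which carries an accession in place of a symbol. This gave 11 probes for 8 of the 33212 gene names on the array, out of 41012 probes. Homer1, Plk3 and Nptx2 had 2 probes each, and the others had 1.

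PC12 cells derive from a pheochromocytoma, a tumour of adrenal chromaffin cells, of the rat. PACAP38, a peptide whose PAC1 receptor raises cyclic AMP, was added at 1e-07 M for 5, 10, 15, 30, 60 or 120 min, and each time point had its own control RNA. The labels call the treated RNA PACAP-differentiated at every time point, and they name the other RNA only as control, with no word on a vehicle. PACAP38 RNA and control RNA were each a pool of n = 6, and the 2 pools shared 2 arrays with 2 colours, with PACAP38 in Cy5 on the first and in Cy3 on the second. Since the same pools were read again after the dye exchange, a time point is 1 replicate, its spread is shown by giving both values, and it allows no test of PACAP38 against control. Of the 3 slides, with 12 arrays in all, the first held 5 and 10 min, the second 15 and 30 min and the last 60 and 120 min. Spots well above background made up 39.8 to 48.9% of an array with PACAP38 and 38.4 to 49.6% with control RNA, no spot was saturated, and the number of arrays limits the precision. Among 10 chromaffin cell markers, 8 stood well above background with control RNA on all 12 arrays, including Th and Dbh, enzymes of catecholamine synthesis. The same held for 2 of 8 markers of mature neurons, 0 of 5 of astrocytes, 1 of 6 of oligodendrocytes and Schwann cells, 2 of 6 of fibroblasts and 1 of 6 of leukocytes. No marker of these 6 lists passed the limits for a change at any time point, where at most 1.95% of all probes were higher and 1.53% lower. In the order given, 10, 4, 1, 3, 4 and 1 markers had an RNA well above background on both arrays of 1 or more time points.

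In neurons, calcium entry and cyclic AMP lead to phosphorylation of transcription factors that are already present, so the first genes to respond need no new protein. Some of these immediate early genes encode transcription factors, while others encode proteins that act at the synapse. Arc drives the endocytosis of AMPA receptors, Homer1 links metabotropic glutamate receptors to intracellular calcium stores, and Nptx1 and Nptx2 are secreted pentraxins that cluster AMPA receptors. Nrn1 (neuritin) is a lipid-anchored protein that promotes neurite growth. Plk2 and Plk3 are Polo-like kinases that, unlike the mitotic kinase Plk1, are induced by stimuli. In the brain, activity induces mainly the short form of Homer1, which lacks the coiled coil through which the long forms assemble.

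The 2 Homer1 probes differed in what they read, so the start of each is shown. The probe of NM_031707 belongs to the RefSeq mRNA, and the probe of U92079 to the first cloned Homer mRNA, which encodes the short form. The ania-5 probe belongs to AF030090, described as a 3' untranslated sequence, and is shown because in the processed signals it passed the limits for a change as early as Arc did. The first 30 bases of each follow, 5′ to 3′, with no base marked.
Homer1 (NM_031707): gcctgtgatattgaagagggttcttttcat
Homer1 (U92079): aacagaagctcattgacaaactaaagtgac
ania-5: acttggcaatgtgacactttcttactgagg
The ania-5 probe lay on rat build rn4 at chr2:23585359-23585418 on the plus strand, and neither Homer1 probe had a position on this build.

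The Plk2 probe and the brighter Plk3 probe are shown because both kinases are related in sequence. Capitals mark the bases that are identical between them at the best alignment without gaps.
Plk2: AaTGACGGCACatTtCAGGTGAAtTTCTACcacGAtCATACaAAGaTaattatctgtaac
Plk3: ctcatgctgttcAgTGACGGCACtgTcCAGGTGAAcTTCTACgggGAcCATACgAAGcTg
Of 48 aligned bases 36 were identical (75.0%), with no identical run longer than 9 bases. The Plk2 probe spanned chr2:41805560-41805752 on rn4 (plus strand) and the Plk3 probe chr5:137444034-137444203 (minus strand). These spans are 193 and 170 bases for probes of 60 bases, as for probes across an exon junction. The second Plk3 probe spanned chr5:137446673-137447549, and the Arc probe lay at chr7:112772025-112772084 (minus strand).

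RefSeq promoters of build GRCr8 were matched by symbol for 4 of the 7 genes: Homer1, Plk2, Plk3 and Nptx2. The 250 bases before the start are shown for the kinases, which are related and both passed the limits for a change. Capitals mark the cyclic AMP response element TGACGTCA and its core TGACG, searched on both strands, and the core lies within the full element.
Plk2 (chr2:43702286-43702535, plus strand): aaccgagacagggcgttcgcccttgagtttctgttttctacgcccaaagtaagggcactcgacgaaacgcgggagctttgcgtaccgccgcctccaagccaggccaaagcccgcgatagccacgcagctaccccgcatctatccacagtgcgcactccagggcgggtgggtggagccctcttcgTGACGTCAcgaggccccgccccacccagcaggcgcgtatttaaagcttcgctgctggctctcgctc
Plk3 (chr5:135848901-135849150, minus strand): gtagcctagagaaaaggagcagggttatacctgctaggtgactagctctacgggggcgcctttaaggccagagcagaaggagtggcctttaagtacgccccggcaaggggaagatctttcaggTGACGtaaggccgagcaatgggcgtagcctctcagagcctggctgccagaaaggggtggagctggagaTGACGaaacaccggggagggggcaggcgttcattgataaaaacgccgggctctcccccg
The full element stood in the Plk2 sequence with its first base at -66 from the start. It was present in 1.59% of 33469 promoter sequences of the same length. The core alone stood in Plk3 at -127 and at -59 and in Nptx2 at -90, and 18.2% of all promoters held it. Nptx2 also held GCGGGGGCG, an Egr-type motif, on the minus strand, as did 2.45% of promoters, and Homer1 held TATAAA on the minus strand, as did 12.9%. No match to TGANTCA (AP-1), GCGTGGGCG (Egr) or the CArG box was found in the 4 sequences, and these stood in 6.34, 0.478 and 1.5% of all promoters. A match is a run of letters in the window and not evidence of binding.

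Member probes passed as higher one after another, and none passed as lower. To pass, a probe had to differ at least 2-fold with a spot p-value below 0.01 on each of the 2 arrays, in 1 direction, where the spot p-value covers the noise of the array only. At 5 min 0 of 11 member probes were higher, as were 0.0% of all 41012 probes. At 10 min 2 were higher, Arc and ania-5, against 0.0658% of all probes. At 15 min the same 2 probes were higher, against 0.0902%. Plk2 joined at 30 min, which gave 3 of 11 against 0.249%. Plk3 and the Homer1 probe of U92079 joined at 60 min, which gave 5 of 11 against 0.87%. At 120 min 5 of 11 were higher against 1.95%, by the same rule. The lower probes were 0 of 11 at every time point, against 0.0% of all probes at 5 and 10 min and 0.0268, 0.102, 0.375 and 1.53% from 15 to 120 min. Only 5 to 7 of the 11 probes could be measured at a time point, with an RNA well above background on both arrays.

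Arc was highest at 30 min and came back close to 2-fold by 120 min. At 5 min the ratios of PACAP38 to control were 0.975 and 1.04 on the arrays with PACAP38 in Cy5 and in Cy3. After 10 min they were 2.03 and 2.10, and after 15 min 3.82 and 3.57. The 30 min arrays gave 6.51 and 5.59, those of 60 min 5.08 and 4.37, and those of 120 min 2.17 and 2.13. The order of the time points was 30, 60, 15, 120, 10 and 5 min, and no neighbours in this order had ratios that overlapped between their arrays. The rise from 5 to 10 min, the rise from 15 to 30 min and the fall from 60 to 120 min were each measured within 1 slide. The scaled signal of Arc with PACAP38 went from 7385 at 5 min to 43183 at 30 min and 13382 at 120 min (geometric means of both arrays), while that of the control stayed between 5903 and 7347. These values rested on 10 spots per array, all RNAs were well above background on all 12 arrays, and the peak at 30 min held under each background setting.

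**Figure D1:**
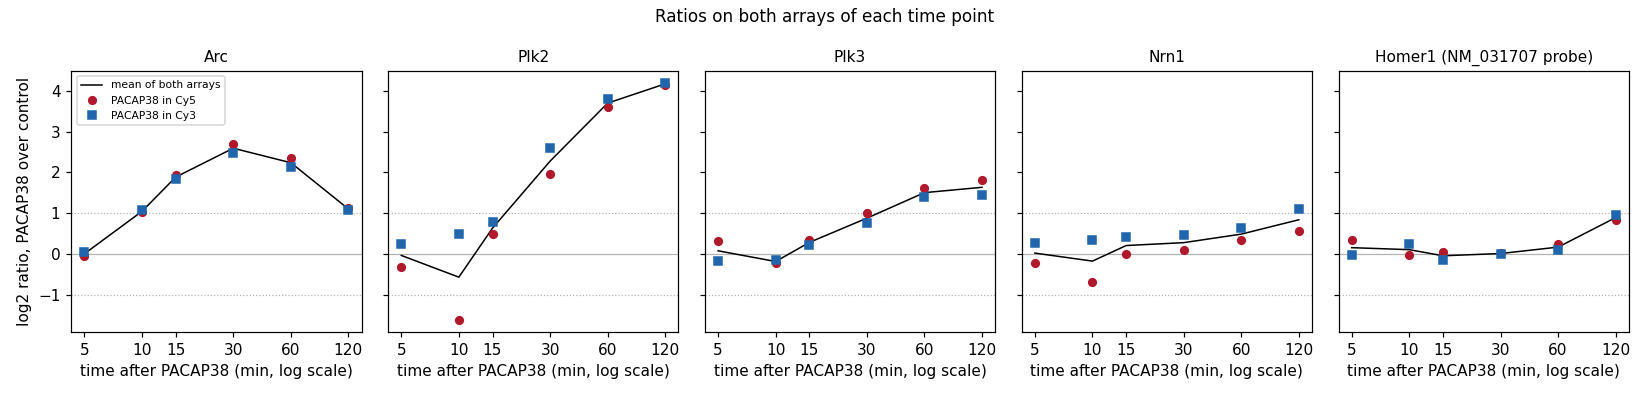
Log2 ratio of PACAP38 over control (y axis) against time in minutes (log-scaled x axis) for 5 member probes, with red circles for the array with PACAP38 in Cy5, blue squares for that with PACAP38 in Cy3, a line through their mean, and dotted lines at a 2-fold difference. Arc peaks at 30 min, Plk2 climbs to 120 min, and Plk3 climbs to 60 min, with arrays of 60 and 120 min that overlap. The Nrn1 and Homer1 (NM_031707) ratios leave 0 mainly at 120 min.

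Plk2 showed the largest rise among the members whose control RNA was well above background on both arrays. The kinase, known in neurons for the turnover of the spine protein SPAR, had ratios of 3.87 and 6.06 at 30 min, 12.1 and 13.95 after 60 min and 17.6 and 18.4 by 120 min. With normexp background correction and loess the mean was 2.02-fold at 30 min, where the probe no longer passed, 6.25-fold at 60 min and 7.37-fold at 120 min. Earlier, the 15 min arrays gave 1.40 and 1.72, under the limit, and those of 5 min 0.8002 and 1.19. The signal with PACAP38 went from 135 at 5 min to 2503 at 120 min, and that of the control from 138 to 139. At 10 min the spot was dim in both channels on the array with PACAP38 in Cy5, with 4.92 for PACAP38 and 15.1 for the control. On the other array the same pools gave 135 and 96.8. The ratio at 10 min was 0.326 on the first and 1.40 on the second, the spot carried no outlier flag, and no fold is read from it. The ratio of Plk2 was higher on the array with PACAP38 in Cy3 at all 6 time points.

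Plk3, a kinase of stress responses, passed at 60 and 120 min with smaller ratios. After 30 min these were 2.01 and 1.68, short of the limit on the second array. The 60 min arrays gave 3.05 and 2.63, and those of 120 min 3.53 and 2.73. The ratios of 60 and 120 min overlapped between their arrays, those of 5 min overlapped with those of 10 and of 15 min, and those of 10 and 15 min did not overlap. The signal with PACAP38 went from 156 at 5 min to 424 at 120 min while that of the control lay between 137 and 173. Plk3 peaked at 120 min in the processed signals and at 60 min with normexp background correction, with 1.80-fold at 60 min and 1.72-fold at 120 min after loess. The second Plk3 probe was dim: its control RNA was well above background on none of the 12 arrays and its PACAP38 RNA on 1, so no fold is given. The difference between both kinases was not tested.

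None of 3 Polo-like kinases outside the members passed as higher. Plk1, which drives mitosis, was 0.760-fold at 60 min and passed the limits as lower at 120 min, with 0.372-fold. Plk4, the kinase of centriole duplication, and Plk5 passed at no time point, with means of 0.481- and 2.03-fold at 120 min. A further probe, of an mRNA described as a Polo-like kinase isoform (AF053092) and chosen after its values were seen, had ratios of 0.531 and 0.347 at 120 min and did not pass. Of 13 mitotic genes, Aurka and Ttk passed as lower at 120 min, with 0.412- and 0.468-fold, where 1.53% of all probes were lower, 0 were higher and 11 passed at no time point. The median log2 ratio of the mitotic list was -0.73 at 120 min, where that of all measured probes was -0.03. Among partners of Plk3 in stress signalling, Cdkn1a (an inhibitor of cyclin-dependent kinases) was 2.90-fold higher at 120 min and passed the limits. None of 6 substrates of Plk2, Sipa1l1 (SPAR) included, passed at any time point, but only 4 could be measured, and at most 1.95% of all probes were higher at a time point.

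**Figure D2:**
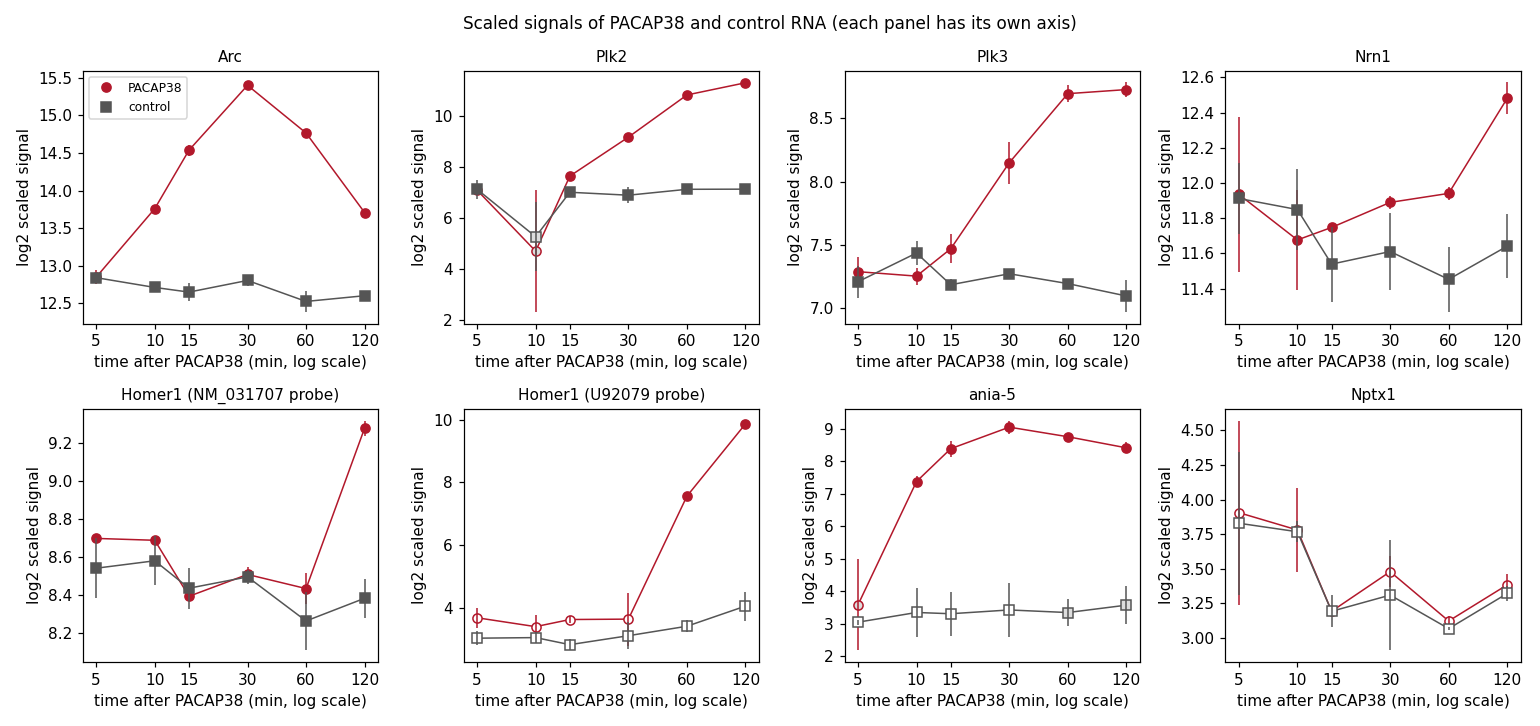
Log2 scaled signal (y axis, a separate scale in each panel) of PACAP38 RNA (red circles) and control RNA (grey squares) against time in minutes (log-scaled x axis) for 8 member probes, as the mean of both arrays with a bar from the lower to the higher array, filled where the RNA was well above background on both arrays, pale on 1 and open on none. The control signals of Arc, Plk3 and Nrn1 vary 1.24-, 1.27- and 1.38-fold over time, those of Homer1 (U92079) and Nptx1 are open throughout, and the 10 min value of Plk2 stands low in both RNAs.

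Homer1 gave different time courses on its 2 probes. On the probe of U92079 both RNAs stayed dim through 30 min, with no array well above background. At 60 min the signal with PACAP38 was 198 and 181 on the 2 arrays, and the control gave 12.2 and 9.26, not well above background. PACAP38 was then at least 10.8-fold higher. At 120 min the signals were 869 and 1009 against 22.9 and 12.02, and PACAP38 was at least 45.6-fold higher. With normexp and loess, where the added offset sets the ratio of so dim a control, the probe passed at 120 min and not at 60 min. These bounds set the PACAP38 mean against the higher of the dim signal and the lowest signal that was well above background on that array. On the probe of NM_031707 both RNAs were well above background on all 12 arrays, and the ratios were 1.19 and 1.07 after 60 min and 1.78 and 1.94 by 120 min. The last missed the 2-fold limit and passed one of 1.5-fold. Up to 30 min its ratios lay between 0.905 and 1.26. None of 13 genes of the Homer, Shank and postsynaptic density list, Homer2 and Homer3 included, and none of 9 genes for receptors and other proteins bound by Homer, such as Itpr1 and Ryr2, passed at any time point. Of these lists 9 and 6 genes could be measured at 1 or more time points. Since at most 1.95% of all probes were higher and 1.53% lower at a time point, a count of 0 in lists of this size says nothing particular about them.

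ania-5, of a series of transcripts cloned for their induction by neurotransmitters, passed from 10 min on while its control RNA stayed dim. Its PACAP38 signal was 31.7 and 4.55 on the 5 min arrays and 186 and 149 on those of 10 min. It was 396 and 283 after 15 min and 610 and 460 after 30 min. It then read 450 and 414 (60 min) and 383 and 303 (120 min). The control signal lay between 6.03 and 19.2 throughout. The difference was at least 6.71-fold after 10 min, 11.5-fold after 15 min and 23.0-fold after 30 min, where the control was well above background on neither array. At 60 and 120 min the control was so on 1 of 2 arrays, with mean signals of 10.2 and 11.9, close to the 10.8 of 30 min, and no fold is read there from the processed signals. With normexp background correction and loess the mean ratios were 3.39 and 2.45 at these times. The added offset sets the ratio of so dim a control, so these do not measure the size of the change. The ratio over this dim control was higher on the array with PACAP38 in Cy5 at all 6 time points. Its peak was at 30 min in the processed signals and at 60 min with normexp correction, and the arrays of 30 and 60 min overlapped.

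A pair of neighbouring probes for transcripts of the same ania series, chosen after their values were seen, gave the positions a context. The ania-8 probe lay 3244 bases and the ania-7 probe 36621 bases further along the plus strand of chromosome 2 on rn4, at chr2:23588603-23588662 and chr2:23621980-23622039. The named probes on either side were those of Tent2 and Bhmt. On GRCr8, Homer1 and Jmy are the 2 protein-coding genes between Tent2 and Bhmt, so the host gene on rn4 was not settled here. The ratios of ania-8 were 7.31 and 6.26 after 10 min, 20.6 and 13.8 after 30 min and 20.8 and 15.7 after 120 min. Those of ania-7 were 9.18 and 7.27 after 30 min and 32.6 and 20.9 after 60 min. Before 30 min neither RNA of ania-7 was well above background on both arrays of a time point, so no ratio is given, and the probe did not pass. The control was well above background on 1 of 2 arrays for ania-8 at 10 min and for ania-7 at 30 and 60 min, so these ratios rest on dim spots. With normexp and loess, where the added offset sets ratios over such dim controls, they were 1.49 for ania-8 at 10 min and 1.55 and 5.16 for ania-7 at 30 and 60 min. In the processed signals the first time point that passed was 10 min for ania-5 and ania-8, 30 min for ania-7 and 60 min for the Homer1 probe of U92079. With normexp, after loess and after median centring, it was 30 min for ania-5 and 120 min for the Homer1 probe of U92079. Tent2 passed at no time point, and Bhmt passed as lower at 30 min with 0.331-fold. Of the other ania probes, which lie elsewhere in the genome, ania-9 differed at least 4.41-fold (60 min) and 5.74-fold (120 min), higher with PACAP38, and ania-10 and ania-12 were not well above background in either RNA.

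**Figure D3:**
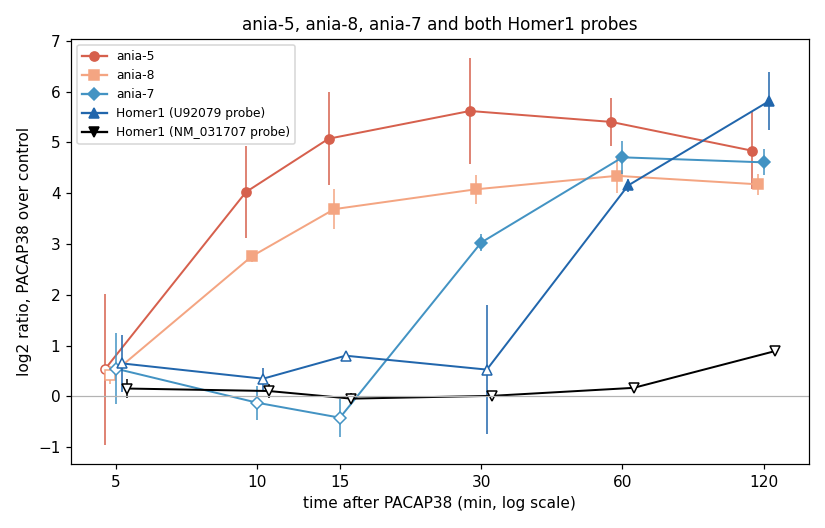
Log2 ratio of PACAP38 over control (y axis) against time in minutes (log-scaled x axis, points shifted slightly apart) for ania-5, ania-8, ania-7 and both Homer1 probes, as the mean of both arrays with a bar from the lower to the higher array, filled where the probe passed the 2-fold and p-value limits. ania-5 and ania-8 are filled from 10 min, ania-7 from 30 min, Homer1 (U92079) from 60 min and Homer1 (NM_031707) nowhere.

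Nrn1 stayed under the limit. Its ratios were 0.862 and 1.20 after 5 min, 0.621 and 1.27 after 10 min and 0.999 and 1.34 after 15 min. The later arrays gave 1.07 and 1.38 (30 min), 1.26 and 1.56 (60 min) and 1.48 and 2.16 (120 min). The array with PACAP38 in Cy3 gave the higher ratio at all 6 time points, and the arrays of each pair of neighbours in the order of ratios overlapped. Its paralog Nrn1l passed at no time point. Neither RNA of Nptx1 or of the 2 Nptx2 probes was well above background on any of the 12 arrays, so no fold is given. Their scaled signals lay between 7.51 and 23.8 for Nptx1, between 4.79 and 10.7 for the brighter Nptx2 probe and between 4.84 and 15.5 for the other. Of the other pentraxins Nptxr, the pentraxin receptor, was well above background in the control on all 12 arrays and passed at no time point, and Ptx3, Crp and Apcs were never well above background there. Of 4 AMPA receptor subunits only Gria2 could be measured, and it did not pass. None of 9 endocytic and kinase partners of Arc passed at any time point, and 7 of them, among them Dnm2 and Ap2m1, were well above background in the control of all 12 arrays. Here too the count of 0 stands against at most 1.95% of all probes higher and 1.53% lower at a time point.

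Other genes that neurons raise with activity gave a wider frame, from a list made with earlier results of these data known. Of 41 such genes on the array 27 were higher at 1 or more time points, 0 were lower and 14 passed at none, 19 were higher at 30 min and 26 at 120 min, against 0.249 and 1.95% of all probes. By the number of time points and the size of the change, Klf4 led, followed by Btg2, Nr4a2 and Junb. At 60 min these were 104-, 58.4-, 30.4- and 20.3-fold higher, and each passed as higher from 10 to 120 min. Npas4 and Bdnf, which neurons raise strongly with activity and which were chosen after their values were seen, were not well above background in either RNA.

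Genes with the most similar time course were found by the root mean square difference of the mean log2 ratio over 6 time points, among 11840 named probes measured at every one. For Arc these were Gadd45b (0.41), Jun (0.48) and a probe of the olfactory receptor gene Or2y11 (0.66). For Plk2 they were Sik1 (0.25), a kinase that cyclic AMP signalling induces, Crem (0.34), a transcription factor of the cyclic AMP pathway, and Csrnp1 (0.37). Sik1 was 12.6-fold and Crem 10.8-fold higher at 60 min, where Plk2 was 12.97-fold higher. For Plk3 they were Pard6a (0.17), Pim3 (0.18) and Mat2a (0.19). For the Homer1 probe of NM_031707 they were Atp2b1 (0.04), Zc2hc1a (0.06) and Atg16l2 (0.07). None are named for ania-5 and the Homer1 probe of U92079, whose ratios were taken over dim control spots. The ratio of Plk2 at 10 min includes its dim spot.

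Slopes over the 6 time points gave the tests that the design allows, and their p-values measure the spread of the time points, with 1 pair of pools each, around a line. The ratio of Plk2 rose by 1.11 log2 units per doubling of time (SE 0.144, limma, adjusted p = 0.0449), and in this fit it was the only one of 5 member probes tested that passed, where 0.523% of the 20265 probes in the fit passed as rising and 0.202% as falling. The slope was 0.42 for Plk3 (SE 0.0640, limma adjusted p = 0.0557) and 0.19 for Nrn1 (SE 0.0405, adjusted p = 0.0762). For Homer1 on the probe of NM_031707 (0.13, adjusted p = 0.241) and Arc (0.28, adjusted p = 0.375) the limma test did not pass either, and Arc rises and falls, which a slope cannot follow. With slide as a random block, where 2402 of the 20265 probes passed, Plk3 (limma adjusted p = 0.0209) and Nrn1 (0.0336) passed. With time in minutes, where 5337 of the 20265 probes passed, Plk3 (limma adjusted p = 0.0228), Nrn1 (0.0123) and Homer1 on the probe of NM_031707 (0.0258) passed. Without 120 min the slope of this Homer1 probe on log2 time was -0.0032 (limma adjusted p = 0.983). Plk3 also passed among probes measured at all time points (limma adjusted p = 0.0362), as did 542 of 15880 probes, and without 5 min (0.0458), as did 153 of 20265. Of 16 alternatives 4 passed for Plk3, 2 for Nrn1 and 1 for this Homer1 probe. With slide as a fixed block the slope was 0.15 for Plk3 (limma adjusted p = 0.914) and 0.08 for Nrn1 (0.937). Of the 7 member probes in the fit 2, ania-5 and the Homer1 probe of U92079, entered it through their PACAP38 RNA alone, with the control well above background on 2 and 0 of 12 arrays, and no test of them is given. Without the 10 min time point the Plk2 slope was 1.01 and its limma adjusted p 0.139. That p was 0.109 without 15 min, 0.0614 without 30 min, 0.128 without 60 min and 0.185 without 120 min. The call was lost in each of these fits. Without 10, 15, 30 or 120 min 0 of the 20265 probes passed, and without 60 min 1 did, so the loss was not particular to Plk2. The Plk2 slope lay between 1.01 and 1.35 over all fits without 1 time point. Where the call was lost, the unadjusted limma p of Plk2 went from 0.000201 (without 10 min) to 0.00284 (without 120 min). It was 0.000226 in the main fit. With slide as a fixed block the Plk2 slope was 0.53 (limma adjusted p = 0.895), since only the difference within each slide then counts. Without the dim spot, an alternative chosen after the values were seen, it was 1.03 (limma adjusted p = 0.0378). The Plk2 call was lost too with normexp and loess (slope 0.736, limma adjusted p = 0.0564) or median centring (0.695, 0.0878). Without a filter on dim probes (1.11, 0.0899) and with PACAP38 in Cy5 alone (1.23, 0.0735) or Cy3 alone (0.998, 0.0516) it was lost as well, each as slope and limma adjusted p. The Plk2 call held with slide as a random block (limma adjusted p = 0.0183), with time in minutes (0.0204) and without 5 min (0.0344). In the random block fit the correlation within slides was negative (-0.264). Its SE was smaller than in the main fit for Plk2 (0.114), Plk3 (0.0514) and Nrn1 (0.0325), so it was no stricter a fit.

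The level of the PACAP38 RNA alone rose for Plk3 by 0.39 log2 units per doubling of time (SE 0.0558, limma adjusted p = 0.0450), where 2.37% of probes in the fit passed as rising and 2.11% as falling. Over the alternatives this adjusted p went from 0.0410 to 0.728, and it was 0.122 without 10 min, 0.0529 without 5 min, 0.0864 without 15 min, 0.0978 without 60 min and 0.166 without 120 min. For Plk2 the slope of the PACAP38 level was 1.27 (limma adjusted p = 0.0550). The control level had no slope that passed in limma for any probe of the fit (0.0%, with 3477 at an unadjusted p under 0.05). The mean log2 ratio over the 6 time points passed for no probe (0.0%, with 1851 at an unadjusted p under 0.05), with 1.48 for Arc (SE 0.331, limma adjusted p = 0.519). The spread of this mean includes the change over time, so a missed limit does not show that a probe was unchanged.

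Folds of the dimmer probes were smaller under another background correction. The normexp correction adds a fixed offset to both channels. After it and loess, Arc at 30 min was 5.85-fold higher instead of 6.03-fold. Plk3 at 120 min was 1.72-fold higher instead of 3.11-fold. The direction of each counted change was the same under normexp with loess and with median centring. Calls that fell away under loess were those of Arc and ania-5 at 10 min, of ania-5 at 15 min, of Plk2 at 30 min, of Plk3 and Homer1 at 60 min and of Plk3 at 120 min. Arc at 10 min was 2.03-fold higher under loess, close to the limit. Under median centring Arc fell away at 120 min too, with 1.78-fold.

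**Figure D4:**
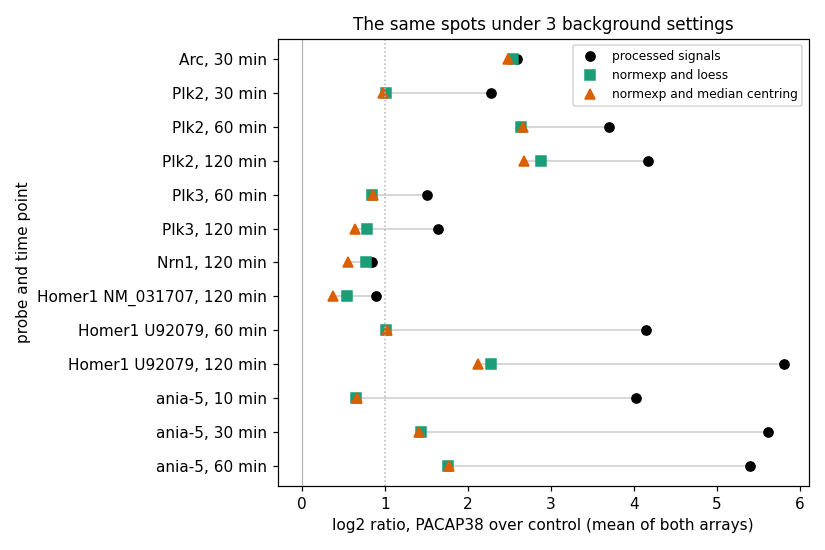
Log2 ratio of PACAP38 over control (x axis, mean of both arrays) for member probes at selected time points (y axis), from processed signals (black circles), normexp with loess (green squares) and normexp with median centring (orange triangles), with a dotted line at a 2-fold difference. The 3 settings lie close together for Arc at 30 min (6.03-, 5.85- and 5.58-fold), while ania-5 and Homer1 (U92079), over dim controls, lie far lower under both normexp settings and stay above 0.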

How the data were processed

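RNA was measured on 12 Agilent whole rat genome arrays with 2 colours. The authors scanned them and extracted signals with Agilent Feature Extraction (12.0.3.1 in the file headers, 11.0.1.1 in the labels). The deposited processed intensity values are background-subtracted and LOWESS dye-normalized, and raw mean and background intensities are beside them. The deposited p-value of a spot belongs to its log ratio, the deposited table of the series holds log10 ratios of Cy5 over Cy3, and the deposited flags give outliers and spots well above background.

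Ratios of PACAP38 to control were taken from processed intensities and turned by dye. Outlier-flagged spots were dropped, and spots of a probe were averaged on the log2 scale, with the median of their p-values. A probe was well above background if at least 0.5 of its spots were. Levels were scaled between arrays with Aquantile. The brightest probe by mean processed signal stands for its gene. Members and gene lists were chosen with earlier results of these data known. From each of 17 lists up to 4 genes with the most time points passed were named, and for each changed member the 3 genes with the nearest time course, except for 2 members with dim control spots. Other genes named from the lists were chosen after their values were seen.

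Slopes on log2 time and means were fitted with limma 3.58.1 in R 4.3.3 over 6 time points, both arrays averaged first, on 20265 probes with an RNA well above background on each array of 1 time point or more, with Benjamini-Hochberg adjustment and a limit of 0.05. The fits were tested on simulated data. Alternatives were other limits on fold and p-value, normexp (offset 50) with loess or median centring, the deposited ratios, 1 array alone, filters, slide blocks and fits without each time point. Tables were made in Python 3.11.15 (pandas 2.3.3). Names were updated by RefSeq accession (19277 probes matched), and positions are on rn4 except promoters, which are RefSeq's on GRCr8. The proteome was not analysed here. A gene of 1 list is not reported here.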

Additional observations from a re-analysis of the deposited data

How the results depend on the processing

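The direction of every counted change of a member probe was the same under all alternatives run for its ratio. With normexp and loess and with normexp and median centring the number of member probes counted went from 2 to 0 at 10 min and from 2 to 1 at 15 min. Under both it went from 3 to 2 at 30 min and from 5 to 3 at 60 min. At 120 min it went from 5 to 4 with loess and to 3 with median centring. With 1 array alone it went from 3 to 4 at 30 min and from 5 to 6 at 120 min, where Plk3 and Nrn1 joined. The deposited ratios gave the same counts. Signal over background limits ania-5, Homer1 (U92079), the second Plk3 probe, Nptx1 and Nptx2.

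The slope of the ratio passed for 147 probes in all, and for 27 with normexp and loess, 1 with normexp and median centring, 0 without a filter on dim probes, 542 when measured at all time points, 3 with PACAP38 in Cy5 alone, 29 with PACAP38 in Cy3 alone, 2402 with slide as a random block, 0 with slide as a fixed block and 5337 with time in minutes, and leaving out 1 time point gave 0 to 153. The mean ratio passed for 0 probes (1851 at an unadjusted p under 0.05 in limma), for 2310 and 3538 with PACAP38 in Cy5 or Cy3 alone, and for 0 to 15 without 1 time point. The control slope passed for 0, and for 5 with slide as a fixed block. The PACAP38 slope passed for 907, for 12 without a filter, for 0 with slide as a fixed block and for 0 to 1719 without 1 time point. The cause of these shifts was not tested. Each ratio sets PACAP38 against the control of its own time point on the same array, and the mean ratio is taken over 6 pairs of pools. These pairs differ in time and are not replicates of 1 condition, so the spread of the mean ratio includes the time course.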
